A study of Mus musculus with 8 samples.

Results

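The genes described here are 10 markers of neutrophils: Csf3r, Cxcr2, S100a8, S100a9, Camp, Ltf, Ngp, Mmp8, Retnlg and Ly6g. They were taken by symbol from a gene count table of mouse macrophages, and all 10 were found among its 54532 gene rows. Macrophages had been collected from the peritoneal cavity of mice given thioglycollate broth, an irritant that recruits leukocytes, and their RNA was sequenced in bulk. Wild-type cells (WT) were compared with cells carrying a knockout (KO) of Men1, which encodes menin, a scaffold of chromatin-modifying complexes. The M_WT group held 3 libraries (in this order below: M_WT_5643, M_WT_6258, M_WT_6255), the M_KO group 3 (M_KO_5944, M_KO_5645, M_KO_5642), F_WT 1 (F_WT_5638) and F_KO 1 (F_KO_5639), all with the same broth treatment. The letters M and F are kept as the titles give them, while the sources used here do not give the Men1 allele, the cells in which it was deleted or the age of the mice.

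Neutrophils are the first leukocytes to enter an inflamed cavity, and macrophages and monocytes follow and clear them. Their precursors fill granules in stages: primary granules hold serine proteases and myeloperoxidase, secondary granules hold lactoferrin and cathelicidin, and tertiary granules hold gelatinase. The cytosol of mature neutrophils is rich in the calcium-binding pair S100A8 and S100A9, and their surface carries receptors for granulocyte colony-stimulating factor and for CXC chemokines. Marker RNA in a macrophage library therefore bears on how many neutrophils came with the macrophages, with the caveat that in bulk RNA fewer cells of a type and less RNA per cell cannot be told apart.

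Library totals ran from 18206427 to 22853583 counts, and up to 3 counts, the limit that a count of 0 allows, corresponded to 0.120 to 0.170 CPM (counts scaled to depth, with TMM factors between libraries). This limit covers counting error only. Men1 itself was at 17.1 to 25.7 CPM in the 4 WT libraries and 6.45 to 11.7 CPM in the 4 KO libraries, without overlap. Macrophage core genes were abundant. Lyz2, which encodes lysozyme and is not particular to macrophages, was at 6876 to 15671 FPKM (fragments scaled to gene length and depth). Its mean FPKM was the highest of the 22046 protein-coding genes. Csf1r, the macrophage growth factor receptor, was at 252.9 to 419.2 FPKM. The titles carry a separate animal number for each library, with no word on litters or collection days, so p-values measure the spread between these libraries.

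Of the 10 neutrophil markers, 3 were above 3 counts in every library (Csf3r, S100a8 and S100a9). A further 5 (Cxcr2, Camp, Ltf, Mmp8 and Retnlg) exceeded 3 counts in at least 1 library, and 2 (Ngp and Ly6g) did so in none. Csf3r was far above the rest per unit of length, ranking 421 by mean FPKM among the protein-coding genes, whereas S100a8 ranked 4680 and S100a9 ranked 6418. The other 7 ranked between 10872 (Camp) and 15036 (Ly6g), and 16070 protein-coding genes had any count. By FPKM, S100a8 (3.57 to 10.8) and S100a9 (0.408 to 16.0) overlapped over the libraries, and both stayed below the lowest Csf3r level (55.2 to 167.5). No gene row in the table overlapped any of the 10 in position (0 rows each).

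**Figure D1:**
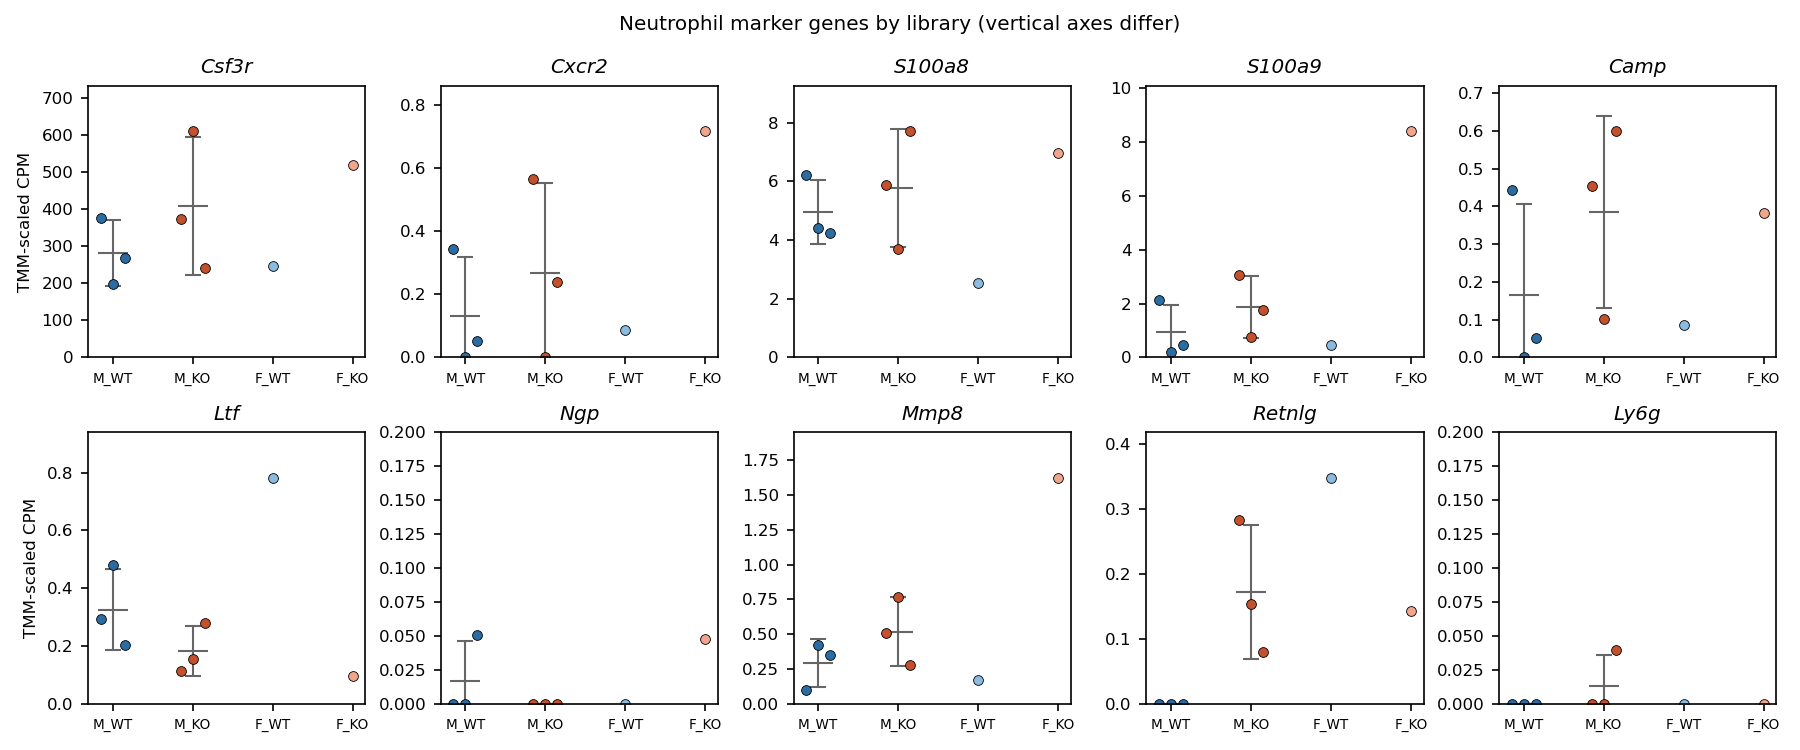
TMM-scaled CPM of each marker, with 1 point per library in the groups M_WT, M_KO, F_WT and F_KO; grey bars show the mean ± SD of the 3 libraries in M_WT and M_KO, and the vertical axes differ between genes. Csf3r lies between 199.0 and 611.1 CPM, whereas Ngp and Ly6g stay at or near 0.

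The 2 receptors were far apart in level. Csf3r (ENSMUSG00000028859, chr4:126024550-126044440, plus strand, GRCm38) encodes the receptor for granulocyte colony-stimulating factor, the cytokine that drives neutrophil production, and monocytes and macrophages can express it too. Its level was 376.0, 199.0 and 269.2 CPM in M_WT_5643, M_WT_6258 and M_WT_6255. In M_KO_5944, M_KO_5645 and M_KO_5642 it was 374.3, 611.1 and 242.4 CPM. The F_WT level was 246.2 CPM and the F_KO level 520.9 CPM. M_KO_5645 and F_KO were the highest, but M_KO_5642 lay below M_WT_5643 and M_WT_6255, so the genotypes overlapped. The mean was 281.4 ± 89.1 CPM in M_WT and 409.2 ± 186.8 CPM in M_KO (SD, n = 3 each), a difference of 0.54 on the log2 scale (SE 0.38) with an adjusted p of 0.670 by edgeR's quasi-likelihood test with Benjamini-Hochberg adjustment. In the fit of genotype and letter to all 8 libraries the log2 difference was 0.68 (SE 0.32, edgeR adjusted p = 0.539).

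Cxcr2 (ENSMUSG00000026180, chr1:74153989-74161246, plus strand) encodes the chemokine receptor by which neutrophils follow CXCL1 and its relatives. It had 7, 0 and 1 counts in the M_WT libraries, 10, 0 and 6 in M_KO, with 2 for F_WT and 15 for F_KO, in the library order above. Both genotypes had a library with no count, and F_KO was the highest at 0.716 CPM. The gene was removed by the filter on low counts, and an exact two-sided permutation test over the 6 M libraries gave p = 0.7, where 3 against 3 libraries cannot go below 0.1.

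S100a8 and S100a9 were the next most abundant markers. Their proteins join into calprotectin, a metal-binding antimicrobial complex of neutrophils that monocytes also make. S100a8 (ENSMUSG00000056054, chr3:90668978-90670035, plus strand) was at 6.20, 4.42 and 4.25 CPM in the M_WT libraries and at 5.88, 3.69 and 7.70 CPM in the M_KO libraries. F_WT had the lowest level of all, 2.52 CPM, and F_KO was at 6.97 CPM. The lowest M_KO library was below every M_WT library and the highest was above every one, so the groups overlapped throughout. The M means were 4.96 ± 1.08 CPM in M_WT and 5.76 ± 2.01 CPM in M_KO (SD, n = 3 each), and the fitted difference was 0.21 on the log2 scale (SE 0.32, edgeR adjusted p = 0.860). Over all 8 libraries it was 0.52 (SE 0.33, edgeR adjusted p = 0.604), and without M_KO_5642 the M difference was -0.056.

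S100a9 (ENSMUSG00000056071, chr3:90692632-90695721, minus strand) lies 22596 bases from S100a8 on the same chromosome. Its level was 2.12, 0.213 and 0.456 CPM in the M_WT libraries and 3.06, 0.768 and 1.76 CPM in the M_KO libraries. F_WT was at 0.478 CPM and F_KO, the highest of the 8, at 8.40 CPM. M_KO_5944 exceeded every M_WT library, while M_KO_5645 and M_KO_5642 lay above M_WT_6258 and M_WT_6255 but below M_WT_5643, so M_WT_5643 was the M_WT library that overlapped with M_KO. The M means were 0.928 ± 1.04 CPM and 1.86 ± 1.15 CPM (SD, n = 3 each), with a log2 difference of 0.98 (SE 0.87, edgeR adjusted p = 0.733). Leaving out 1 M library at a time moved this difference between 0.43 (without M_KO_5944) and 2.44 (without M_WT_5643), and its adjusted p stayed between 0.410 and 0.970. Over all 8 libraries the difference was 1.71 (SE 0.89, edgeR adjusted p = 0.562), and it was 0.97 without F_KO_5639 and 3.03 without M_WT_5643.

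S100a8 and S100a9 were correlated over the libraries, with a much wider range for S100a9. Over the 8 libraries, log2 CPM of S100a8 and S100a9 had a Pearson correlation of 0.72 (exact permutation p = 0.0314) and a Spearman correlation of 0.62 (exact permutation p = 0.115), with 1 pair of genes tested. Without M_KO_5642 and F_WT_5638, the libraries farthest from the S100a8 median, Pearson's r was 0.87 (n = 6). S100a9 spanned 39.4-fold from the lowest to the highest library and S100a8 spanned 3.06-fold. The ratio of S100a8 to S100a9 in FPKM was 2.20, 15.6 and 7.02 in the M_WT libraries, 1.45, 3.61 and 3.30 in M_KO, with 3.97 for F_WT and 0.624 for F_KO. S100a9 exceeded S100a8 per unit of length in F_KO alone among the 8 libraries. Pearson's r with S100a8 was 0.81 for Camp, 0.70 for Cxcr2, 0.25 for Mmp8 and 0.17 for Csf3r. It was -0.35 for Retnlg and -0.62 for Ltf, and none of these other pairs was tested. The protein-coding genes outside the marker lists with the closest pattern to S100a8 in log2 CPM over the 8 libraries were Lin37 (r = 0.98), Thap11 (0.96), Brd3 (0.93), Dpep2 (0.93) and Ankrd40 (0.92), and of 11590 genes compared, 238 were closer to S100a8 than S100a9 was.

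**Figure D2:**
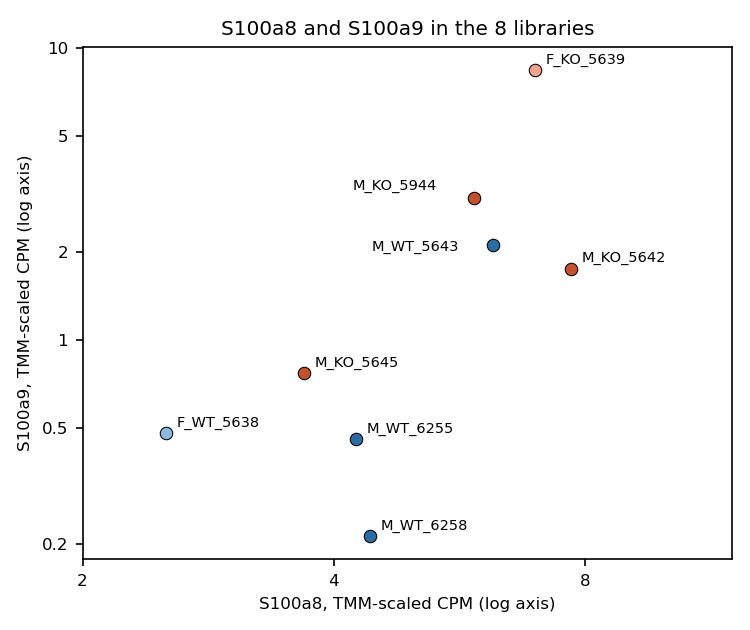
TMM-scaled CPM of S100a8 (horizontal, log axis) against S100a9 (vertical, log axis), with 1 labelled point per library. F_KO_5639 is highest for S100a9 at 8.40 CPM, M_KO_5642 is highest for S100a8 at 7.70 CPM, and M_WT_5643 lies among the M_KO libraries.

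The regions before the starts of the markers are shown for S100a8 and S100a9, whose levels were correlated, and for Mmp8 and Ngp, granule genes near or below the counting limit. Sequences are from RefSeq (GRCm38.p6), 5′ to 3′ in the direction of the gene, and each covers the part of the 250 bases before the RefSeq start that lies outside the gene as the count table places it. Capitals mark matches on either strand to TTGCNNAA, a form of the C/EBP recognition sequence, and to GAGGAA, the core bound by PU.1. A match to 1 motif overlapped a match to the other in 0 windows of the 10 genes. C/EBP factors and PU.1 are the textbook regulators of granulocyte and macrophage genes.
S100a8 (chr3:90668821-90668977, plus strand): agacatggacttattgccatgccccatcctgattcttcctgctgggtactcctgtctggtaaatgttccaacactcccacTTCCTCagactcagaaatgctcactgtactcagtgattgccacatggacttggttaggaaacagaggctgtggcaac
S100a9 (chr3:90695722-90695971, minus strand): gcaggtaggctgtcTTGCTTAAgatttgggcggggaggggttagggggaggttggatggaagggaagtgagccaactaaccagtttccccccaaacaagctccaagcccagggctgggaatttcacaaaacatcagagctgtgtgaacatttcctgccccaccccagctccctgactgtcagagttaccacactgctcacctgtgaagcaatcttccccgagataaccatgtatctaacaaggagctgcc
Mmp8 (chr9:7558179-7558428, plus strand): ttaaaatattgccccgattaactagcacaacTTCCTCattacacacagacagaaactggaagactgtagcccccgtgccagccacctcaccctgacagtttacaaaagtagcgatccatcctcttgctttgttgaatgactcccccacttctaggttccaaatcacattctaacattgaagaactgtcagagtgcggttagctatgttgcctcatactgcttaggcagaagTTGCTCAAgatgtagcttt
Ngp (chr9:110419558-110419746, plus strand): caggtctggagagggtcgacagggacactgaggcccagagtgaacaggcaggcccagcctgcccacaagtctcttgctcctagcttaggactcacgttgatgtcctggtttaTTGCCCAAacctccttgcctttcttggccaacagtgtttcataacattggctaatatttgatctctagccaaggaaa
In the full 250 bases, TTGCNNAA was found for 6 of the 10 markers (S100a9, Ltf, Ngp, Mmp8, Retnlg and Ly6g). Counted by promoter this was 6 of 11, against 9.56% of 32851 RefSeq promoters of that length. GAGGAA was found for 6 of the 10 (Csf3r, Cxcr2, S100a8, Ltf, Mmp8 and Ly6g). Counted by promoter this was 7 of 11, against 23.3% of the RefSeq promoters. The markers with TTGCNNAA ranged from S100a9, counted in every library, to Ly6g, with 1 count in all. A match describes letters in a window and says nothing of binding in these cells.

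Camp, Ltf and Ngp, genes of secondary granules, were at or near the counting limit. Camp (ENSMUSG00000038357, chr9:109847379-109849617, minus strand), which encodes the antimicrobial peptide cathelicidin, had 9, 0 and 1 counts in M_WT, 8, 2 and 15 in M_KO, with 2 for F_WT and 8 for F_KO. Ltf (ENSMUSG00000032496, chr9:111019271-111042767, plus strand), which encodes the iron-binding protein lactoferrin, had 6, 9 and 4 counts in M_WT, 2, 3 and 7 in M_KO, with 18 for F_WT and 2 for F_KO. Camp and Ltf did not go the same way: every KO library exceeded the WT median for Camp, and every KO library lay below it for Ltf, while the genotypes overlapped for both. Exact two-sided permutation tests over all 8 libraries gave p = 0.114 for Camp and p = 0.0571 for Ltf, where the smallest possible value is 0.0286. Ngp (ENSMUSG00000032484, chr9:110419747-110423012, plus strand), a cystatin-related protein of the same granules and one of the most abundant transcripts of maturing neutrophils, had 1 count in M_WT_6255, 1 in F_KO_5639 and 0 elsewhere. Ngp was thus not detected above the counting limit of 3 counts in any library of either genotype.

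Mmp8 (ENSMUSG00000005800, chr9:7558456-7568485, plus strand) encodes neutrophil collagenase, which cleaves fibrillar collagen. It had 2, 8 and 7 counts in M_WT, 9, 15 and 7 in M_KO, with 4 for F_WT and 34 for F_KO. F_KO stood highest at 1.62 CPM, and M_KO_5642 (0.279 CPM) was below M_WT_6258 (0.426 CPM) and M_WT_6255 (0.354 CPM), so the genotypes overlapped. Its exact permutation p was 0.4 over the M libraries and 0.114 over all 8.

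Retnlg and Ly6g, a secreted and a surface marker, were the least counted apart from Ngp. Retnlg (ENSMUSG00000022651, chr16:48872621-48874496, plus strand) encodes resistin-like gamma, a secreted protein of mature neutrophils. It had 0 counts in each M_WT library, 5, 3 and 2 counts in the M_KO libraries, 8 in F_WT and 3 in F_KO. The M groups did not overlap, but F_WT was the highest of all 8 libraries, so KO and WT overlapped over the whole set. The exact permutation p was 0.1 over the M libraries, the smallest that 3 against 3 can give, and 0.4 over all 8. The authors' deposited table lists Retnlg with a log2 fold change of 4.81 and an adjusted p of 0.489, a fold that rests on a group at 0. Retnla, a related gene of the same family, was at 264.1 to 700.1 CPM, and the sources used here do not say how reads shared between such relatives were counted. Ly6g (ENSMUSG00000022582, chr15:75155240-75159126, plus strand), which encodes the surface antigen used to sort mouse neutrophils, had 1 count, in M_KO_5642, and 0 in the other libraries. Its level was therefore below the limit in both genotypes, and the treatment of reads shared with other Ly6 family genes is likewise not given.

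Across these genes no difference between genotypes passed the test. The same edgeR test did not call Men1, the gene knocked out (M log2 difference -1.49, SE 0.21, edgeR adjusted p = 0.284). DESeq2 did call Men1 (-1.50, DESeq2 adjusted p = 4.45e-06). A lack of edgeR calls here therefore does not show that levels were equal. In the M comparison 3 of the 10 markers passed the filter on low counts (Csf3r, S100a8 and S100a9) and edgeR called 0 of them at an adjusted p under 0.05, against 0.022% of all 13646 genes tested. None of the 3 had an unadjusted edgeR p under 0.05. DESeq2, fitted without that filter, also called 0 of the 10, against 1.21% of the 15544 genes it gave an adjusted p. No adjusted p was given to Retnlg, Cxcr2, Ngp and Ly6g, so DESeq2 could not call these. Its unadjusted p was under 0.05 for 1 of the 10, Retnlg. Over all 8 libraries edgeR again called 0 of 3, with 0 at an unadjusted p under 0.05 and 0.00727% of genes called. DESeq2 called 0 of 10 there, against 0.874% of the 15099 genes it gave an adjusted p. Camp, Cxcr2, Retnlg, Ngp and Ly6g had no adjusted p there and could not be called. The unadjusted DESeq2 p was under 0.05 for 2 of the 10, Csf3r (DESeq2 adjusted p = 0.465) and S100a9 (DESeq2 adjusted p = 0.423). The 3 tested markers were all higher in M_KO, with a median log2 difference of 0.54 beside 0.01 for all genes tested. The authors' deposited table holds 8 of the 10, without Ngp and Ly6g, and called 0 of them, against 0.553% of its genes. Among the 8 markers above 3 counts in some library, 1 (Retnlg) had M_KO libraries all above M_WT, where 9.09% of all genes tested and 6.12% of genes with 10 to 30 counts over the 8 libraries showed this. None of the 8 separated the genotypes over all 8 libraries, which 5.63% of genes did in either direction. The lowest of the 16 exact permutation p-values over these 8 markers was 0.0571, for Ltf, so no adjusted value could fall under 0.05.

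Summed over the markers, the libraries overlapped between genotypes as well. All 10 together came to 385.5, 204.6 and 274.6 CPM in M_WT, 385.1, 616.7 and 253.4 CPM in M_KO, with F_WT at 250.7 and F_KO at 539.3 CPM, and Csf3r made up 95.7% to 99.1% of each sum. Without Csf3r the other 9 summed to 9.50, 5.54 and 5.42 CPM in M_WT, 10.9, 5.64 and 11.0 CPM in M_KO, with F_WT at 4.48 and F_KO at 18.4 CPM. M_KO_5645 lay beside M_WT_6258 and M_WT_6255, and M_WT_5643 beside M_KO_5944, so animals of 1 genotype differed by as much as the groups did. The M means of this sum were 6.82 ± 2.32 CPM in M_WT and 9.16 ± 3.05 CPM in M_KO (SD, n = 3 each), a ratio of 1.34. These 9 genes took 0.000471% to 0.00179% of a library's counts, and their summed FPKM was 0.0287% to 0.136% of the summed FPKM of 14 macrophage core genes. S100a9 stood at 0.00378% to 0.158% of Lyz2 in FPKM. Lyz2 is 1 of the 14 core genes and is not particular to macrophages, so neither share is set against macrophages alone. A library of pure neutrophils was not analysed here, so these shares of RNA were not turned into shares of cells.

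**Figure D3:**
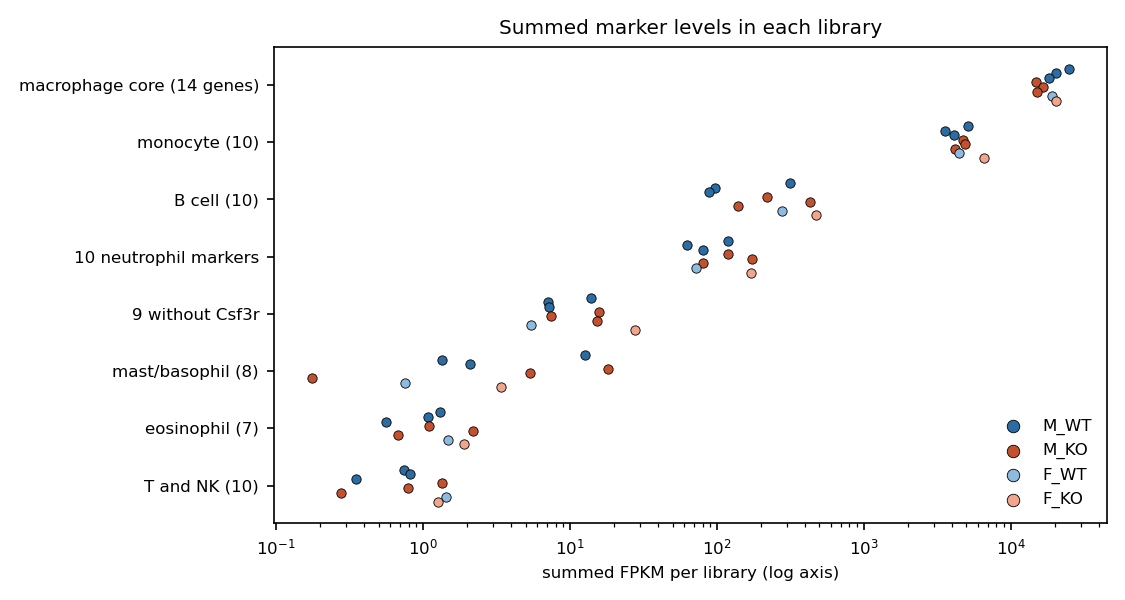
Summed FPKM (log axis) of the markers of each cell type, with 1 point per library coloured by group. The 9 neutrophil markers without Csf3r lie between 5.48 and 27.7 FPKM, below the B cell sum (88.8 to 470.4) and far below the 14 macrophage core genes (14857 to 24978).

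The F pair had 1 library per genotype and allows no test of its own, only ratios of 2 libraries with exact intervals for counting error at 95%. F_KO exceeded F_WT 17.6-fold for S100a9 (9.59 to 35.9), 9.34-fold for Mmp8 (3.33 to 36.2) and 8.24-fold for Cxcr2 (1.92 to 74.3). The ratio was 2.77 for S100a8 (2.03 to 3.82) and 2.12 for Csf3r (2.05 to 2.18). Ltf went the other way with a ratio of 0.122 (0.0137 to 0.510), while the intervals of Camp (0.877 to 42.5) and Retnlg (0.0704 to 1.72) included 1. The F_KO library thus held the most S100a9, Mmp8 and Cxcr2 RNA of the 8 libraries, while its 2 Ltf counts were, like those of M_KO_5944 and M_KO_5645, not above the limit of 3. The difference between the letters in the genotype effect was fitted as an interaction term. Its spread came from the M libraries alone, since each F group has 1 library, and the F libraries were assumed to vary like them. The term was 3.16 for S100a9 on the log2 scale (SE 1.76, edgeR adjusted p = 0.965), 1.28 for S100a8 (SE 0.65, adjusted p = 0.965) and 0.56 for Csf3r (SE 0.76, adjusted p = 0.967). edgeR called 0 of these 3 (0 at an unadjusted p under 0.05) against 0.0218% of genes, and DESeq2 called 0 against 0.168% of genes, with S100a9 at an unadjusted p of 0.0496.

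Other neutrophil genes were examined by class, beside the same 13646 genes, of which 51.5% were higher in M_KO and 9.56% had an unadjusted edgeR p under 0.05 (DESeq2: 6.30% of 25425 genes). Of 5 primary granule genes 2 could be tested, both higher in M_KO (median log2 difference 1.11), and edgeR called 0 (0 at an unadjusted p under 0.05, DESeq2 0 called). Myeloperoxidase (Mpo), the defining enzyme of these granules, had 0 counts in all 8 libraries, and neutrophil elastase (Elane) had 25 counts in all. Proteinase 3 (Prtn3), which shares their granule in neutrophils, was at 38.1, 3.20 and 4.96 CPM in M_WT, 64.1, 75.4 and 21.0 CPM in M_KO, with F_WT at 17.3 and F_KO at 36.5 CPM. Prtn3 was thus well above the limit in every library, with M_WT_5643 above M_KO_5642, and its log2 difference in M was 1.79 (SE 0.97, edgeR adjusted p = 0.591).

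Of 13 further secondary and tertiary granule genes 9 could be tested, 5 higher and 4 lower in M_KO (median 0.25), with 0 called by edgeR or DESeq2 and 4 at an unadjusted p under 0.05 by each (DESeq2 fitted 12). Cd177, which encodes a surface protein of neutrophils, was at 16.3, 4.47 and 7.39 CPM in M_WT and 36.9, 38.6 and 16.9 CPM in M_KO. The F_WT level was 4.35 CPM and the F_KO level 18.6 CPM, so every KO library exceeded every WT library. Over the 8 libraries 5.63% of genes separated the genotypes in either direction. The M difference of Cd177 was 1.70 on the log2 scale (SE 0.53, edgeR adjusted p = 0.474). Over all 8 libraries DESeq2 called 2 genes of this list, against 0.874% of all genes. They were Cd177 (1.80, DESeq2 adjusted p = 0.00667) and Chil3 (1.25, DESeq2 adjusted p = 0.0487), both higher in KO. Chil3 is also 1 of the 10 genes of the monocyte list, so it is not particular to neutrophils. The authors' deposited table gives Cd177 an adjusted p of 0.0421. Lcn2, which encodes the siderophore-binding lipocalin, was at 13.5 to 194.6 CPM and Hp, which encodes haptoglobin, at 131.2 to 658.4 CPM, and macrophages make both as well. Lcn2 was highest in M_WT_5643 and lowest in M_KO_5642, with a log2 difference of -0.23 (SE 1.03, edgeR adjusted p = 0.958). Cebpe, the factor needed for secondary granules, was at 0.102 to 1.65 CPM. Padi4, which encodes a histone-citrullinating enzyme of neutrophils and macrophages, was at 435.4 to 784.1 CPM with a log2 difference of -0.23 (SE 0.24, edgeR adjusted p = 0.783).

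Of 22 further genes of mature neutrophils 16 could be tested, 7 higher and 9 lower (median -0.08), with 0 called by either tool and 4 at an unadjusted p under 0.05 by each (DESeq2 fitted 21). Slpi, a protease inhibitor of neutrophils and macrophages, ranked 6 by FPKM among protein-coding genes and was at 715.6 to 3177 CPM in WT and 2034 to 10467 CPM in KO. These ranges overlapped, and the M difference was 1.95 on the log2 scale (SE 0.79, edgeR adjusted p = 0.511). Hdc, which encodes the histamine-forming enzyme, was at 101.0 to 1122 CPM, highest in F_KO and lowest in M_KO_5642. Slfn4, an interferon-induced gene of myeloid cells, was lower in M_KO by a log2 difference of -0.99 (SE 0.37, edgeR adjusted p = 0.478). Cxcr1, a chemokine receptor of mature neutrophils, had 0 counts in every library.

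**Figure D4:**
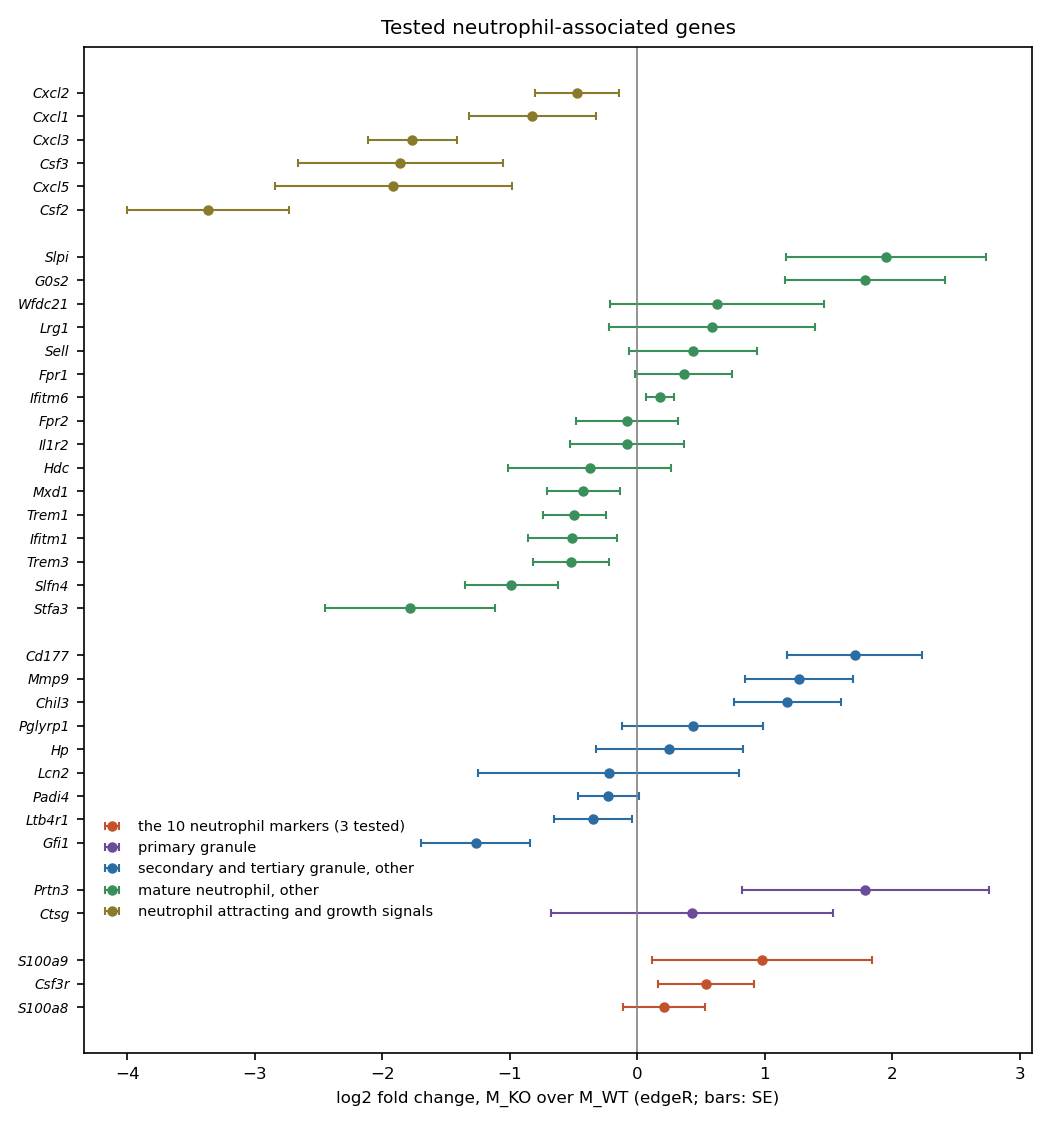
Log2 fold change of M_KO over M_WT from edgeR (points) with its SE (bars) for each tested gene of the marker set and of 4 further neutrophil lists, which are coloured by list. The 3 tested markers lie between 0.21 and 0.98, the 6 tested attracting and growth signals are all below 0, and edgeR called 0 of the genes shown.

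Of 8 signals that draw or sustain neutrophils 6 could be tested, and all 6 had lower fitted levels in M_KO (median log2 difference -1.81). edgeR called 0, with 2 at an unadjusted p under 0.05, and DESeq2 called 2, Cxcl3 and Csf2, against 1.21% of all genes. Cxcl3, a ligand of CXCR2, was at 557.4, 743.9 and 436.0 CPM in M_WT, 190.4, 97.3 and 226.7 CPM in M_KO, with F_WT at 346.7 and F_KO at 318.6 CPM. The log2 difference of Cxcl3 in M was -1.76 (SE 0.35) and the adjusted p was 0.357 by edgeR and 3.25e-04 by DESeq2. Csf2, which encodes the granulocyte-macrophage growth factor, was at 14.5, 14.1 and 5.92 CPM in M_WT, 2.04, 0.973 and 0.399 CPM in M_KO, with F_WT at 6.52 and F_KO at 3.20 CPM. Its M difference was -3.37 on the log2 scale (SE 0.63), with adjusted p-values of 0.354 by edgeR and 5.71e-06 by DESeq2. Cxcl1 and Cxcl2, the other abundant CXCR2 ligands, had log2 differences of -0.82 (SE 0.50, edgeR adjusted p = 0.624) and -0.47 (SE 0.33, edgeR adjusted p = 0.665). Csf3, the ligand of the Csf3r product, had 744, 240 and 227 counts in M_WT, 89, 209 and 29 in M_KO, with 89 for F_WT and 319 for F_KO. Csf3 had a log2 difference of -1.86 in M (SE 0.80, edgeR adjusted p = 0.532), while its receptor had a difference of 0.54.

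Markers of other cells were measured beside these values. All 10 B cell genes were detected and higher in M_KO by the fit (median log2 difference 0.66, edgeR called 0 with 0 at an unadjusted p under 0.05, DESeq2 0 with 2), with sums of 150.5 to 481.5 CPM in WT and 226.2 to 766.7 CPM in KO. The highest B cell sum, like the highest sum of the 9 neutrophil markers, was in F_KO, while M_KO_5642 was next for the neutrophil sum but was below M_WT_5643 and F_WT for the B cell sum. Mast cell and basophil genes summed to 1.60 to 22.7 CPM and were highest in M_KO_5944 and M_WT_5643, the libraries with the most S100a9 after F_KO. Macrophage core genes summed to 28108 to 37582 CPM in WT and 24276 to 31496 CPM in KO. The part of these other cells in the levels of Csf3r, S100a8 and S100a9 was not tested.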

How the data were processed

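RNA of 8 libraries of peritoneal macrophages was analysed, grouped by the titles and genotype labels. The library kit was NEBNext Ultra RNA, per the labels' protocols. The submitters' processing notes list DESeq2 1.16.1, featureCounts 1.5.0-p3 and HISAT2 2.0.5; the builds are GRCm38 and mm10. The sources used here do not give the strand setting, the handling of multi-mapping reads or the annotation release. The authors deposited whole read counts per gene, not normalized, and FPKM values, fragments scaled to gene length and library size. Their deposited table of M_KO against M_WT holds a signal per library derived from the counts, not used here, with log2 fold changes and p-values by the authors. No value column lacked a sample or group (0 columns), and 8 columns repeated in a second table were not used.

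Counts were tested in R 4.3.3 with edgeR 4.0.16, by the quasi-likelihood test after TMM scaling and edgeR's expression filter on genotype, with Benjamini-Hochberg adjustment over all genes tested and a threshold of 0.05. The M comparison used 6 libraries. Fits over 8 libraries had genotype and letter, or their interaction, as terms. Standard errors were derived from the F statistic. CPM was scaled by TMM over all 8 libraries. Log2 CPM for correlations had 0.5 added. Markers removed by the filter were given by counts. Exact two-sided permutation tests compared mean log2 CPM, with 0.5 added, for the 8 markers above 3 counts in some library. Depth was 18206427 to 22853583 counts per library, and 3 counts were taken as the limit that a count of 0 allows. Limits and intervals cover counting error only, because reads are not independent molecules. The procedures were tested on simulated data.

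The markers and gene lists were chosen with earlier results of these data known, so no list was tested as a whole. The text names Men1, the 10 markers, and from each other list mainly the 3 genes highest in mean CPM and any that edgeR or DESeq2 called in M. A gene that this rule would name is not reported here. It also names the 5 genes most like S100a8. Mpo, Cxcr1, Cd177, Chil3, Cebpe, Csf3, Csf1r and Retnla were added outside this rule, after their values were seen. Alternatives were DESeq2 1.42.0, RLE and upper-quartile factors, other filters on low counts, limma 3.58.1 (voom, and log2(FPKM + 1) or log2(FPKM + 0.1)), and leaving out each library. Sums without Csf3r, and without Csf3r, S100a8 and S100a9, were chosen after seeing the data.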

Additional observations from a re-analysis of the deposited data

Results flagged for a closer look

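Among the 4 WT libraries, S100a9 was far higher in M_WT_5643 (2.12 CPM) than in the other three, at 0.213 to 0.478 CPM. This gap exceeded Dixon's critical value for 4 libraries, which chance exceeds in about 1 of 20 groups. M_WT_5643 also had the highest WT sums of mast cell and basophil genes (17.0 CPM) and B cell genes (481.5 CPM), and their part in the S100a9 level was not tested.

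Retnlg was at 0.348 CPM in F_WT_5638 and at 0 counts in the other WT libraries. It met the same criterion only because the other values were 0, which any count in 1 library would do, so it does not show that this library stands apart. The difference of F_KO from F_WT was -0.204 CPM (0.143 against 0.348 CPM), while each M_KO library was above each M_WT library. The gene was removed by the filter on low counts, so this difference between the letters was not tested, and it rests on 3 and 8 counts.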

How the results depend on the processing

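edgeR and the alternatives called 0 of the neutrophil markers in every setting run. The log2 differences of Csf3r, S100a8 and S100a9 kept a positive sign in all of them except S100a8 in M without M_KO_5642, which was -0.056 against 0.21 with it (-0.056 to 0.45 over the fits without 1 library). The lowest adjusted p of Csf3r, S100a8 or S100a9 over these settings was 0.258, for S100a9 over 8 libraries without M_WT_5643. In single fits some markers had an unadjusted p under 0.05, among them S100a9 in M without M_WT_5643 and Csf3r in M without M_KO_5642. Over 8 libraries they included S100a9 and Csf3r without M_WT_5643, Csf3r without M_KO_5642, and S100a9 by limma voom.

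Counts of all genes called moved with the tool, the filter and the libraries. In M edgeR called 3, DESeq2 188, edgeR with no filter 16, and edgeR without 1 library 0 to 21. For genotype over 8 libraries the counts were 1, 132, 7 and 0 to 3. For the interaction edgeR called 3, DESeq2 22, and edgeR without 1 library 0 to 6. Where M_WT or M_KO lost a library, edgeR pooled the spread over the remaining ones; without F_WT_5638 or F_KO_5639 the lone F library fixes only the letter term.

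The log2 ratio of the summed CPM of the markers, M_KO over M_WT, was 0.54, and 0.15 to 0.80 with 1 M library left out. Without Csf3r it was 0.43, and 0.27 to 0.74. It was 0.72 without Csf3r, S100a8 and S100a9. No paired analysis was possible because the animal numbers in the titles differ between the groups. Depth limits Ngp, Ly6g, Retnlg, Cxcr2, Camp, Ltf and Mmp8, whose differences rest on few counts.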

Other observations

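Markers of further cell types were measured in the M comparison, and edgeR called 0 genes in each of these lists. Over all genes tested, 9.56% had an unadjusted edgeR p under 0.05. Of 10 monocyte genes 6 were higher and 4 lower in M_KO (median log2 difference 0.08), with 3 at an unadjusted edgeR p under 0.05 and 0 DESeq2 calls. Of 10 genes of resident peritoneal macrophages 4 were higher and 6 lower (median -0.11, 1 at an unadjusted p under 0.05), and DESeq2 called Vsig4, a complement receptor, lower. Of 14 macrophage core genes 5 were higher and 9 lower (median -0.24, 2 at an unadjusted p under 0.05).

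Of 8 dendritic cell genes 4 could be tested, 1 higher and 3 lower (median -0.63, 2 at an unadjusted p under 0.05), and DESeq2 called Cd209a, a lectin, lower. Their summed level was 23.3 to 42.5 CPM in WT and 13.01 to 19.7 CPM in KO. Few genes of the remaining lists passed the filter: 3 of 7 for eosinophils, 5 of 8 for mast cells and basophils, 1 of 10 for T and NK cells, 2 of 9 for red cells and platelets and 4 of 8 for mesothelial and stromal cells. Within these lists 0 genes had an unadjusted edgeR p under 0.05 and DESeq2 called 0.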
